A study of Mus musculus with 4 samples.

Results

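The 37 transcripts described here are those of macrophages and related myeloid cells, measured in RNA from cultured mammary fibroblasts. They were chosen as a list of gene symbols, with earlier results of these arrays known. All 37 were on the array, through 56 probe sets with a single gene symbol, out of 12394 genes measured in all. Each gene was read by its brightest probe set, the one with the highest mean over the 4 arrays, and 9 of the 37 had more than 1 probe set.

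Macrophages arise from bone marrow or embryonic precursors under the transcription factor PU.1, encoded by Spi1, and most of them need signals through the CSF1 receptor, encoded by Csf1r, to survive. They sense and engulf targets through Fc receptors, scavenger receptors and pattern recognition receptors, many of which signal through the adaptors DAP12 (Tyrobp) and the Fc receptor gamma chain (Fcer1g). They secrete lysozyme and the C1q subunits of complement and carry many lysosomal proteases. In mammary tumors, macrophages gather in the stroma beside the fibroblasts, so a fibroblast culture started from digested tissue can carry some of them along.

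The arrays, of the Affymetrix mouse genome type, held RNA from second-passage fibroblasts of the mammary glands of female FVB/N mice aged 9 weeks, with 1 array for each of 4 groups. The normal Ets2-present group was Ets2db/loxP and the normal Ets2-null group was Fsp-cre;Ets2db/loxP. The PyMT Ets2-present group was PyMT;Ets2db/loxP and the PyMT Ets2-null group was PyMT;Fsp-cre;Ets2db/loxP. All 4 groups thus carried 1 db allele, which lacks the DNA-binding domain of the transcription factor ETS2 in every cell, and 1 loxP allele, which Cre can delete. PyMT is the polyoma middle T oncogene, placed under the MMTV promoter and so active in mammary epithelium rather than in the fibroblasts. Fsp-cre expresses Cre from the promoter of S100a4, a gene that some myeloid cells also transcribe. Both Ets2-null groups carried the Cre transgene and neither Ets2-present group did, so that the effects of Cre and of Ets2 loss cannot be told apart. The stromal cells were obtained by collagenase and hyaluronidase digestion and gravity separation, with no sort against blood cells described. The paper reports that vimentin staining of cultured fibroblasts from PyMT mice showed strong enrichment for fibroblasts, and refers to earlier work for purity. The number of mice behind each array is not given in the sources used here.

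With 1 array a group, each group difference compares 2 arrays and carries neither an error nor a p-value. The 4 values of a gene are always given with the normal pair first and the PyMT pair second, each pair as Ets2-present and then Ets2-null. Values are log2 levels, in which 1 unit is 2-fold, and a level can be compared across arrays for 1 probe set but not between genes. The table carries no detection calls, so a level of 4.63, its 40th percentile, was used to mark low values and is called the filter level. Where a value lay under it, a fold is also given with that value raised to it, since the depth of a low reading is uncertain. In bulk RNA, fewer cells of a type and less RNA per cell cannot be told apart. For scale, probe sets of the same gene disagreed with an SD of 0.60 in the Ets2 difference in PyMT fibroblasts, 0.42 in that of normal fibroblasts, 0.43 in the PyMT difference with Ets2 and 0.61 in the PyMT difference without Ets2, over 2984 genes. That SD measures disagreement between probes and not between animals or cultures.

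The arrays agreed broadly, with correlations of 0.959 to 0.985 over probe sets, and the PyMT Ets2-null array correlated least with the others, at 0.959 to 0.969. On that array the 18S rRNA controls averaged 9.63, against 7.94 to 8.16 on the other arrays, and the bioB, bioC and bioD spike-ins averaged 11.3 against 10.6 to 10.8. Its lower quartile of all levels was 3.66 against 3.43 to 3.47, and 4598 genes with a mean under the filter level had a median difference of 0.20 between the PyMT Ets2-null and PyMT Ets2-present arrays, against -0.002 for the 7796 genes over it. The Ets2 probe set read 11.9 and 11.9 in normal and 11.2 and 11.2 in PyMT fibroblasts, Ets2-present and Ets2-null. Where it lies relative to the deleted segment is not given, so it does not check the labels. The paper reports loss of ETS2 protein by Western blot, and of phosphorylated ETS2 by staining, in fibroblasts from PyMT;Fsp-cre;Ets2db/loxP mice. Whether those were the cultures on these arrays is not stated.

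Promoter sequences are shown for the 4 members whose levels the results turn on most. Lcp1 and Pilra were among the members that stood furthest apart between the PyMT arrays, and the adjacent lysozyme genes Lyz1 and Lyz2 were level between them while both stood higher in PyMT than in normal fibroblasts. Sequences are the bases up to the RefSeq start on GRCm38.p6, read 5′ to 3′ along the strand of the gene, in lower case. Capitals mark ACTTCCT, the reverse complement of AGGAAGT, which holds the GGAA core bound by ETS factors, the family of both ETS2 and PU.1.
Lcp1, chr14:75130873-75131104, plus strand: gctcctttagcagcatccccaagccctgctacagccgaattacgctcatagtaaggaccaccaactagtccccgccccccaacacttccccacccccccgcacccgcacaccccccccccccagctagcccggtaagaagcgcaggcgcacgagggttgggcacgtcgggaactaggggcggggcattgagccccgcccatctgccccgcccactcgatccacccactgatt
Pilra, chr5:137836279-137836528, minus strand: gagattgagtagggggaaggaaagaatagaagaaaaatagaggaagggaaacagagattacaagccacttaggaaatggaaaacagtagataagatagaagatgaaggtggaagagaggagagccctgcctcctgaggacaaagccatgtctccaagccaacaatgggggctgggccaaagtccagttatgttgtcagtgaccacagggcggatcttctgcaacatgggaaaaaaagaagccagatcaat
Lyz1, chr10:117292869-117293118, minus strand: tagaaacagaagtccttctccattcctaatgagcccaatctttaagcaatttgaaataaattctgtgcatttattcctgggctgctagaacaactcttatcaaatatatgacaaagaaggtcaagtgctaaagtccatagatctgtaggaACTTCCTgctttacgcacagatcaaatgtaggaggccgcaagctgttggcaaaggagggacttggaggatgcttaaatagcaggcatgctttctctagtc
Lyz2, chr10:117282273-117282522, minus strand: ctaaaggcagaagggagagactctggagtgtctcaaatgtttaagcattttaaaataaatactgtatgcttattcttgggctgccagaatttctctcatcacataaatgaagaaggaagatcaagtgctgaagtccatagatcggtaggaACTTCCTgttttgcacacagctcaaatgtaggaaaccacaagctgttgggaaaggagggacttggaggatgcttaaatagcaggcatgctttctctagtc
Both lysozyme promoters hold a single capitalized match and the Lcp1 and Pilra stretches hold none. The GGAA core by itself was not marked, and it also occurs in the Lcp1 and Pilra stretches. Over 240 aligned bases Lyz1 and Lyz2 were 85.4% identical, and their coding sequences are close enough that a probe for 1 transcript may read the other, so that the levels of this pair cannot be assigned to each gene with certainty.

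RefSeq promoter windows, running from 250 bases before to 50 after the start, were matched for 25 of the 37 members, some with more than 1 start. On either strand AGGAAGT lay in 10 of 30 member windows (33.3%) and in 3072 of all 32851 windows (9.35%). The 9 genes were C1qb, C1qc, Cd53, Ctss, Lyz1, Lyz2, Mrc1, Pilra and Ptprc, and in Pilra the match lay in the 50 bases after the start. The longer GAGGAAGT, which contains the shorter motif, lay in 3 member windows (10%), those of C1qc, Cd53 and Ctss, and in 3.20% of all windows. A match is a run of letters and not a binding site. Lyz1 and Lyz2, and the C1q genes, lie side by side and are related, so their windows are not separate observations.

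Across the 4 arrays the myeloid transcripts were mostly low and were highest as a group in PyMT Ets2-present fibroblasts. Of the 37, 14 and 19 reached the filter level in normal fibroblasts with and without Ets2, and 22 and 17 in PyMT fibroblasts with and without it, while 62.7% to 63.9% of all genes did so. The median member level was 4.32, 4.63, 5.09 and 4.52 in the same order, and the summed log2 level of the list was 175, 180, 205 and 187. The PyMT Ets2-present array held the highest value of the 4 for 17 members, against 22.0% of all genes, and the lowest for 2, against 24.6%. The lowest value was on the other arrays for 12, 12 and 11 members, in normal Ets2-present, normal Ets2-null and PyMT Ets2-null, against 20.6%, 25.9% and 28.9% of all genes. The PyMT Ets2-null array held the highest value for 12 members, against 36.6% of all genes.

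**Figure D1:**
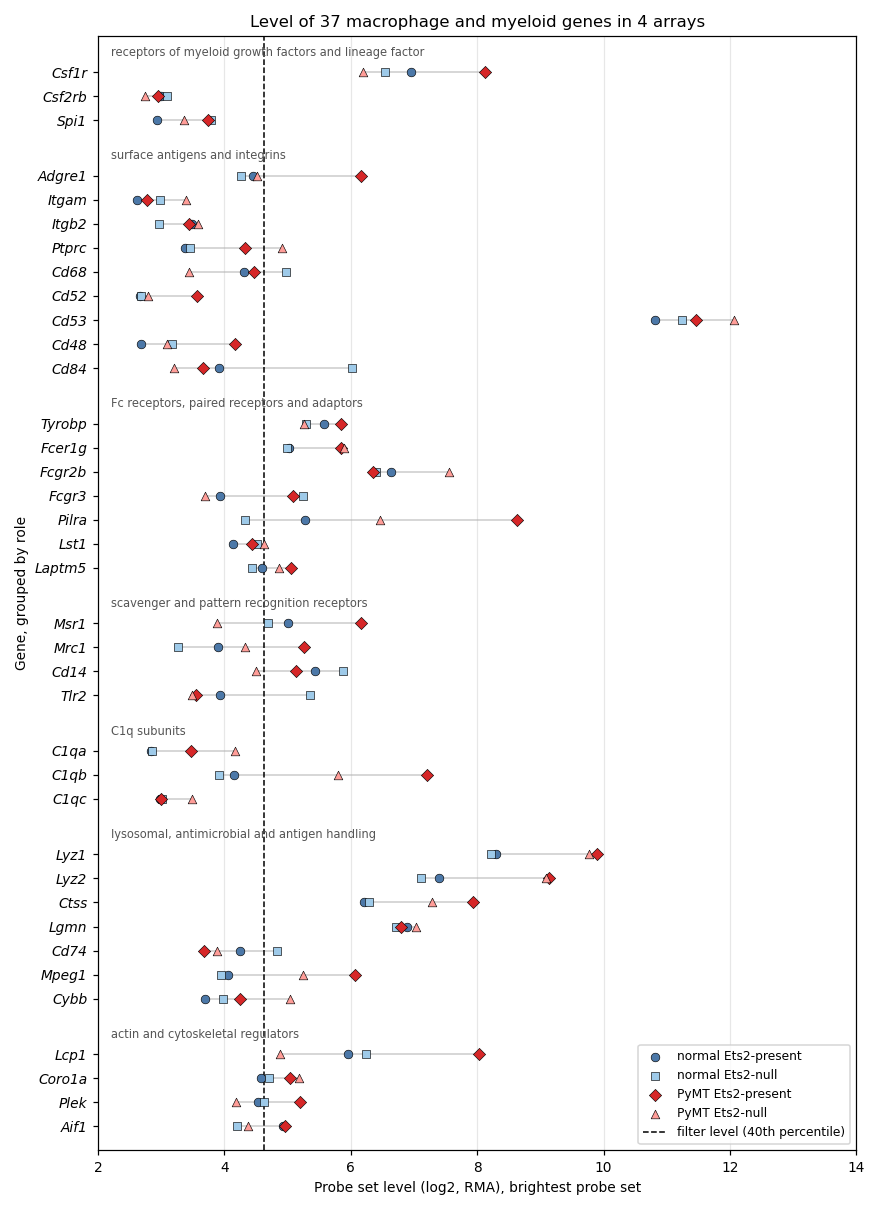
Log2 level of the brightest probe set of each of the 37 members on the 4 arrays, with members grouped by role and 1 point per array; the dashed line marks the filter level of 4.63. No error bars are drawn because each group has 1 array, and 10 members lie at or over the line on all 4 arrays while 9 lie under it on all 4.

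The label of the list fits the arrays only in part. Of the 37 members, 9 were under the filter level on all 4 arrays, and among them were defining myeloid or leukocyte genes: Spi1, the integrin chains Itgam (CD11b) and Itgb2 (CD18), the shared cytokine receptor chain Csf2rb, Cd52 and Cd48, as well as Lst1, C1qa and C1qc. Another 8 reached it on 1 array, 6 on 2 arrays and 4 on 3 arrays. The 10 members at or over it on all 4 arrays were Csf1r, Cd53, Tyrobp, Fcer1g, Fcgr2b, Lyz1, Lyz2, Ctss, Lgmn and Lcp1. Cd14, Tlr2, Lgmn, Ctss and Cd68 are transcribed by fibroblasts as well as by macrophages, so their levels are not specific to myeloid cells.

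Comparing PyMT Ets2-null with PyMT Ets2-present fibroblasts asks how the myeloid transcripts differed with Ets2 loss in tumor-bearing glands. Of 37 members, 10 were at least 2-fold lower in the Ets2-null array, a call made for 6.62% of all genes, and 1 was at least 2-fold higher, against 8.3%. The 10 were Adgre1, C1qb, Cd48, Cd68, Csf1r, Fcgr3, Lcp1, Msr1, Pilra and Plek, and the 1 was Fcgr2b. At 4-fold, Lcp1, Msr1 and Pilra were lower (0.662% of all genes) and 0 members were higher (0.5%). The median member difference was -0.39 against 0.06 for all genes, with 24 members below 0 and 13 above. When values under the filter level were raised to it before subtraction, Adgre1, C1qb, Csf1r, Lcp1, Msr1 and Pilra were still at least 2-fold lower, 6 of 37 against 4% of all genes, Fcgr2b was still higher, 1 of 37 against 3.03%, and the median was 0. C1qb, Coro1a, Lcp1 and Pilra are also among the genes the study listed from these same arrays, so that their direction is not independent evidence. The paper also reports that quantitative RT-PCR in independent tumor fibroblast RNA verified most of the changes, and it lists primers for Lcp1. The Lcp1 result is not given in the sources used here.

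**Figure D2:**
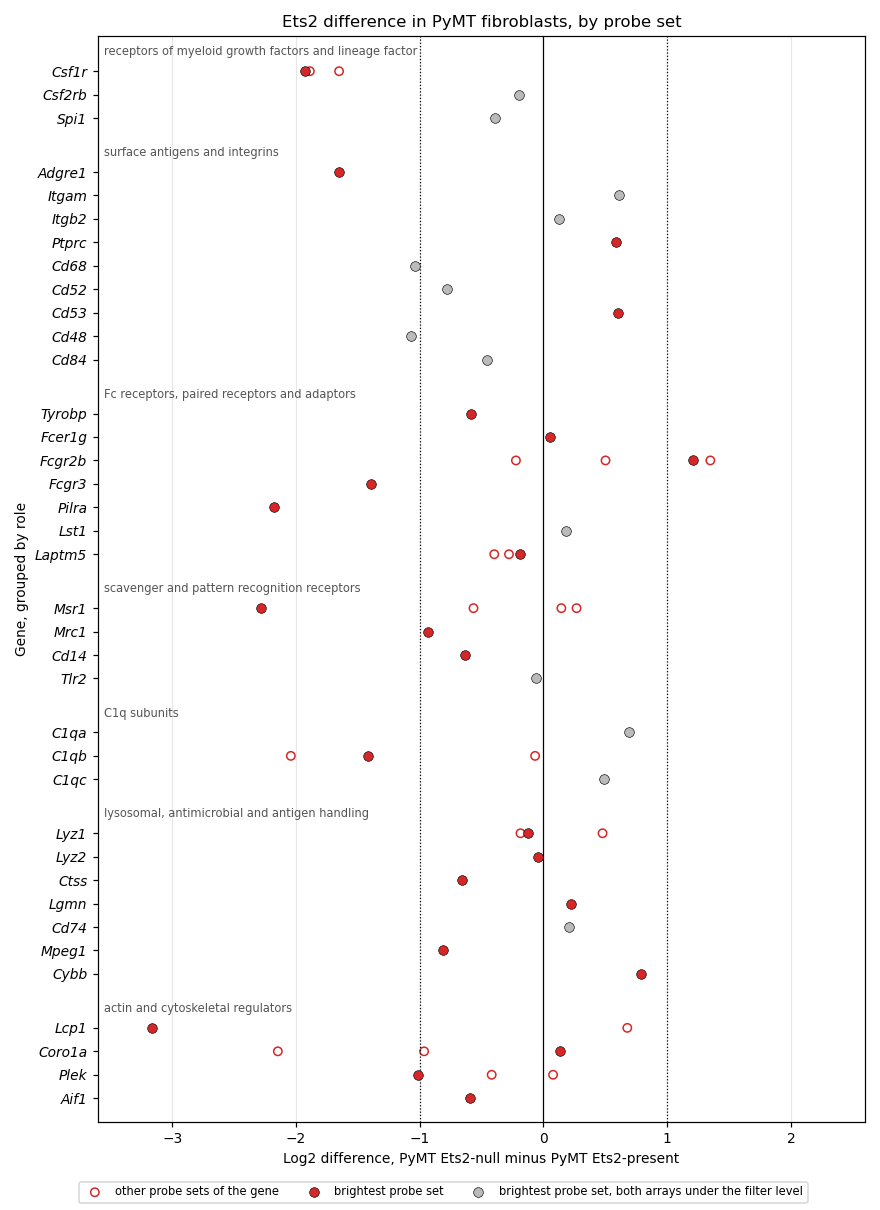
Log2 difference, PyMT Ets2-null minus PyMT Ets2-present, for every probe set of the 37 members, with filled points for the brightest probe set, grey where both arrays were under the filter level, and open points for the other probe sets. Dotted lines mark 2-fold; Lcp1 is furthest left at -3.16 while its other probe set is at 0.68, and the 3 Csf1r probe sets lie together between -1.93 and -1.65.

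Comparing PyMT Ets2-present with normal Ets2-present fibroblasts asks how the same transcripts differed with the tumor. Here 13 members were at least 2-fold higher in the PyMT array, against 5.28% of all genes, and 0 were at least 2-fold lower, against 5.58%. The 13 were Adgre1, C1qb, Cd48, Csf1r, Ctss, Fcgr3, Lcp1, Lyz1, Lyz2, Mpeg1, Mrc1, Msr1 and Pilra. C1qb, Lcp1 and Pilra were at least 4-fold higher (0.589% of all genes) and 0 members were 4-fold lower (0.791%). The median member difference was 0.65 against -0.01 for all genes, with 29 members above 0. With low values raised to the filter level, 10 members were still at least 2-fold higher, against 2.53% of all genes, 0 were lower (3.11% of all genes), and the median was 0.035. This comparison and the preceding one share the PyMT Ets2-present array, on which a high or low reading moves both in opposite directions.

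Without Ets2 the PyMT difference was mixed. Between PyMT Ets2-null and normal Ets2-null fibroblasts, 10 members were at least 2-fold higher (9.8% of all genes) and 6 at least 2-fold lower (8.73%). The higher ones were C1qa, C1qb, Cybb, Fcgr2b, Lyz1, Lyz2, Mpeg1, Mrc1, Pilra and Ptprc, and the lower ones Cd14, Cd68, Cd84, Fcgr3, Lcp1 and Tlr2. At 4-fold, Pilra was higher (0.912%) and Cd84 lower (1.55%). With low values raised, 5 were higher (4.22% of all genes) and 3 lower (5.94%), and the median was 0. With the values as deposited it was 0.31 for the members and 0.10 for all genes.

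In normal fibroblasts, Cd84, Fcgr3 and Tlr2 were at least 2-fold higher in the Ets2-null array, 3 of 37 against 3.08% of all genes, and 0 members were at least 2-fold lower, against 2.73%. Cd84 was at least 4-fold higher (0.202% of all genes), and 0 were 4-fold lower (0.0645%). The median was 0.03 against -0.02 for all genes. With low values raised Cd84 was still at least 2-fold higher, 1 of 37 against 1.15% of all genes, and 0 were lower, against 0.839%.

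**Figure D3:**
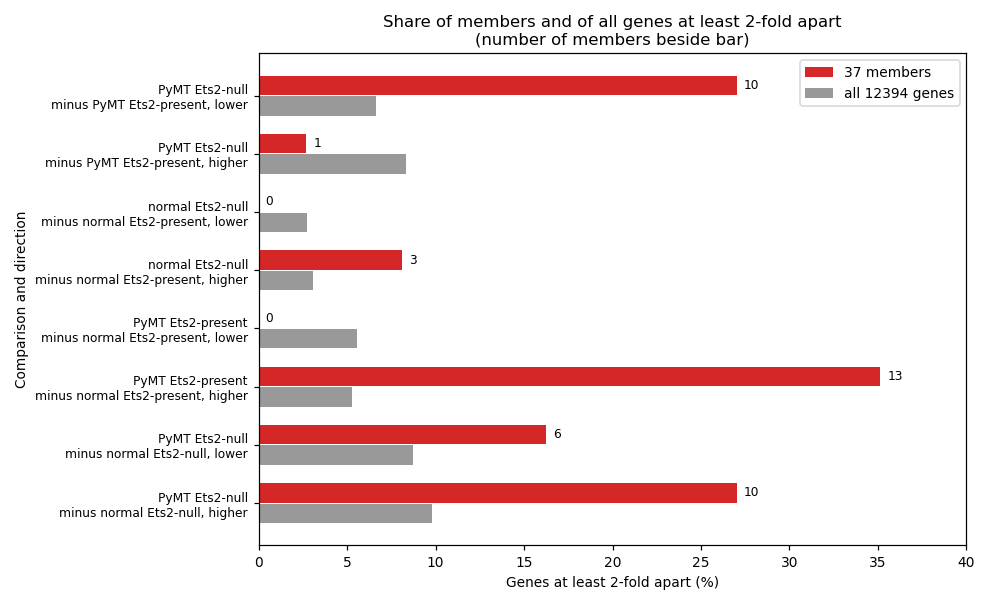
Percent of the 37 members (red, number beside the bar) and of all 12394 genes (grey) at least 2-fold lower or higher in each of the 4 comparisons. The share of members exceeds that of all genes by most for PyMT over normal with Ets2 (13 members, against 5.28%) and for lower levels without Ets2 in PyMT fibroblasts (10 members, against 6.62%).

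Among the growth factor receptors and lineage factor, only Csf1r was well above the filter level. Csf1r, the receptor for CSF1 and interleukin 34, read 6.95 and 6.54 in normal and 8.12 and 6.19 in PyMT fibroblasts, with and without Ets2 in each case. The PyMT Ets2-present array stood alone at the top. The receptor was 3.81-fold lower without Ets2 in PyMT fibroblasts and 2.25-fold higher in PyMT than in normal fibroblasts with Ets2. Its 3 probe sets gave differences of -1.93, -1.89 and -1.65 for the former and 1.17, 1.37 and 1.01 for the latter. Spi1 read 2.94, 3.78, 3.75 and 3.36 in the same order of arrays, all under the filter level, and Csf2rb read between 2.75 and 3.09.

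Of the 9 surface antigens, 3 were at least 2-fold lower without Ets2 in PyMT fibroblasts and 0 higher, against 6.62% and 8.3% of all genes. Adgre1, the adhesion receptor whose antigen is the usual marker of mouse macrophages, read 4.45 and 4.27 in normal and 6.17 and 4.52 in PyMT fibroblasts. It was over the filter level in PyMT Ets2-present fibroblasts only, 3.29-fold above normal Ets2-present and 3.14-fold above PyMT Ets2-null, or 2.90-fold in both cases with low values raised. Ptprc, the pan-leukocyte phosphatase CD45, had another order, with 3.38, 3.46, 4.33 and 4.92, and was over the filter level only on the PyMT Ets2-null array. Itgam, which pairs with Itgb2 in the complement receptor CR3, read 2.62, 2.98, 2.78 and 3.39. Itgam and Itgb2 lay under the filter level on all 4 arrays, and Ptprc did so on the PyMT Ets2-present array. Their differences between the PyMT arrays were 0.61, 0.13 and 0.59, or 0, 0 and 0.285 with low values raised. Such low readings cannot show whether these genes, which other leukocytes also transcribe, were lower in the PyMT Ets2-null array.

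Cd68, a lysosomal membrane glycoprotein, read 4.32, 4.98, 4.48 and 3.44. Both PyMT values lay under the filter level, so that their difference of -1.04 was 0 once low values were raised. Cd84, a SLAM family receptor that binds to itself on neighboring cells, read 3.91, 6.02, 3.67 and 3.21 and so was over the filter level on the normal Ets2-null array alone. It stood 4.33-fold above normal Ets2-present there, or 2.62-fold with low values raised. The remaining surface antigens were the tetraspanin Cd53, with levels from 10.8 to 12.1 and its highest value in PyMT Ets2-null fibroblasts, and the low Cd52, Cd48 and Itgb2, with levels from 2.67 to 4.17. The Cd48 difference of -1.07 between the PyMT arrays also lay wholly under the filter level.

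The Fc and paired receptors held the largest tumor difference of the list. Pilra, an inhibitory paired receptor of myeloid cells, read 5.28 and 4.32 in normal and 8.63 and 6.46 in PyMT fibroblasts. Both PyMT arrays were above both normal arrays, by 10.2-fold with Ets2 and 4.40-fold without it, and the Ets2-null array was the lower of each pair, by 4.51-fold in PyMT and 1.94-fold in normal fibroblasts. With the normal Ets2-null value raised to the filter level, the folds that use it were 3.55 and 1.56. Pilra has 1 probe set.

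Fcgr3, an activating Fc receptor for IgG, read 3.93, 5.25, 5.09 and 3.70. It was 2.50-fold higher without Ets2 in normal and 2.62-fold lower without Ets2 in PyMT fibroblasts, with 2 of its 4 values under the filter level, and with these raised the folds were 1.53 and 1.38. Fcgr2b, the inhibitory Fc receptor for IgG that B cells also use, was the member at least 2-fold higher in PyMT Ets2-null fibroblasts, with 6.64, 6.40, 6.35 and 7.56. Its other probe sets gave -0.22, 0.50 and 1.35 for the same difference, and those at -0.22 and 0.50 were under the filter level throughout. The adaptors varied less. Tyrobp had levels from 5.27 to 5.85, Fcer1g from 4.99 to 5.90, the leukocyte genes Lst1 from 4.13 to 4.62 and Laptm5 from 4.44 to 5.06, and none of these 4 was 2-fold apart in any of the 4 comparisons.

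Of the 4 scavenger and pattern recognition receptors, 1, Msr1, was at least 2-fold lower in PyMT Ets2-null than in PyMT Ets2-present fibroblasts, against 6.62% of all genes. The differences of Mrc1, Cd14 and Tlr2 were -0.93, -0.63 and -0.06, under 2-fold. Msr1, the class A scavenger receptor for modified lipoproteins, read 5.004, 4.70, 6.16 and 3.88. It was 4.87-fold lower without Ets2 in PyMT fibroblasts, where its value was under the filter level, or 2.89-fold with that value raised, and 2.23-fold higher in PyMT than in normal fibroblasts with Ets2. Its other 3 probe sets, all under the filter level on every array, gave -0.57, 0.27 and 0.15 for the former, and the mean over the 4 probe sets gave -0.61. Mrc1, the mannose receptor CD206, read 3.90, 3.27, 5.26 and 4.34, over the filter level in PyMT Ets2-present fibroblasts alone. Cd14, the coreceptor for lipopolysaccharide, read 5.43, 5.88, 5.14 and 4.51, and Tlr2, the receptor for bacterial lipopeptides, read 3.94, 5.35, 3.55 and 3.50. Both were highest in normal Ets2-null fibroblasts, and both are transcribed by fibroblasts too.

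Of the C1q subunits, which assemble into the first component of the classical complement pathway and are made mainly by macrophages, only C1qb reached the filter level, on the PyMT arrays. It read 4.16 and 3.91 in normal and 7.21 and 5.79 in PyMT fibroblasts. The PyMT arrays were above the normal arrays by 8.30-fold with Ets2 and 3.69-fold without. Both normal values were under the filter level, and with these raised the folds were 5.97 and 2.24. Ets2-null was 2.67-fold below Ets2-present in PyMT fibroblasts. A further probe set, also of a type that may hybridize to other transcripts, gave -2.04 for that last difference, 2.82 for PyMT over normal with Ets2 and 1.33 without. The third probe set, the plain one and under the filter level on every array, gave -0.07, 0.33 and 0.30. The partner subunits C1qa and C1qc had levels from 2.84 to 4.17. As deposited they were 0.70 and 0.49 higher on the PyMT Ets2-null array, in the direction opposite to C1qb. All their values lay under the filter level, and both differences were 0 with low values raised. These 3 genes lie next to one another on chromosome 4.

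Of the 7 lysosomal, antimicrobial and antigen handling genes, 5 were higher in PyMT than in normal fibroblasts with Ets2 and 6 without it. Of these 7, 4 were at least 2-fold higher in PyMT than in normal fibroblasts with Ets2 (5.28% of all genes) and 4 without Ets2 (9.8%), while 0 were at least 2-fold apart between the PyMT arrays (6.62% lower and 8.3% higher), and the median differences were 1.61, 1.05 and -0.04. Lyz2, the lysozyme of macrophages, read 7.39, 7.11, 9.13 and 9.09, and Lyz1, known from Paneth cells, read 8.29, 8.22, 9.90 and 9.77. Both PyMT arrays were about level and both lay above the normal arrays. For Lyz2 the PyMT difference was 3.34-fold with Ets2 and 3.94-fold without, and for Lyz1 it was 3.04-fold and 2.92-fold. The brightest Lyz1 probe set and a second one are of a type that may hybridize to other transcripts. The third, the plain one, gave 0.46 and 0.96 on the log2 scale. It was over the filter level on the PyMT Ets2-null array only, at 4.95. Lyz1 may thus not count separately from Lyz2.

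Ctss, the cathepsin that trims the invariant chain for antigen presentation, read 6.21, 6.29, 7.93 and 7.28, and was 3.30-fold higher in PyMT than in normal fibroblasts with Ets2 and 1.98-fold higher without. Mpeg1, a pore-forming protein of phagosomes, read 4.06, 3.95, 6.06 and 5.25, with both PyMT arrays over the filter level and both normal arrays under it. Raising these left folds of 2.69 with Ets2 and 1.53 without. Cybb, the catalytic subunit of the phagocyte NADPH oxidase, read 3.70, 3.98, 4.24 and 5.04 and was highest without Ets2 in PyMT fibroblasts. As deposited, the order of the PyMT arrays differed among these genes. Without Ets2, Cybb was higher and Ctss and Mpeg1 were lower, with differences of 0.79, -0.65 and -0.81. Cybb was over the filter level on the PyMT Ets2-null array only. With low values raised its difference was 0.40, within the 0.60 SD of probe set disagreement, and the Ctss difference lay near that SD. The protease Lgmn had levels from 6.72 to 7.03 and the invariant chain gene Cd74 from 3.68 to 4.83.

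**Figure D4:**
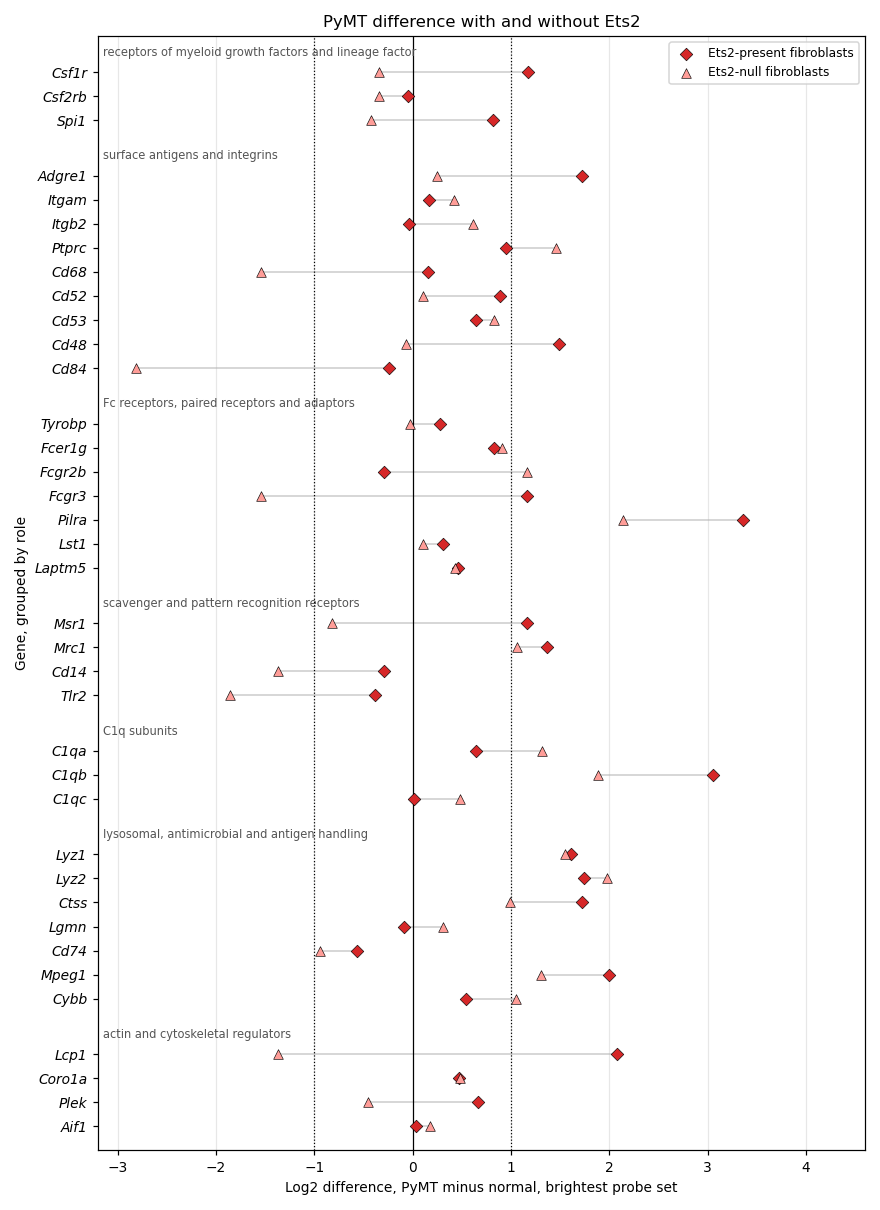
Log2 difference between PyMT and normal fibroblasts for each of the 37 members, with Ets2 and without Ets2 as separate points. Points right of 0 are higher in PyMT. Values are as deposited. Lyz1, Lyz2, Pilra, C1qb, Mpeg1 and Mrc1 are at least 2-fold to the right in both, while Lcp1 and Fcgr3 lie on opposite sides (2.08 and -1.37, 1.17 and -1.55). With low values raised, Mrc1 (0.63 and 0) and Fcgr3 (0.46 and -0.62) are under 2-fold in both, and Mpeg1 is so without Ets2 (0.62).

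Among the cytoskeletal regulators, Lcp1, the leukocyte actin bundler L-plastin, had the largest difference of any member between the PyMT arrays. It read 5.96 and 6.24 in normal and 8.04 and 4.88 in PyMT fibroblasts. The PyMT Ets2-null array was the lowest and the PyMT Ets2-present array the highest, 8.93-fold apart. Its other probe set read 4.63, 4.55, 5.36 and 6.04, which put the PyMT Ets2-null array highest and gave a difference of 0.68, so that the 2 probe sets of Lcp1 disagreed in direction. The mean of both gave -1.24.

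Plek, the platelet and leukocyte protein pleckstrin, read 4.53, 4.63, 5.19 and 4.18, a 2.02-fold difference between the PyMT arrays, 1.48-fold with low values raised, that its other probe sets gave as 0.08 and -0.42 on the log2 scale. Coro1a, the leukocyte coronin, had levels from 4.58 to 5.18 by its brightest probe set, with a difference of 0.14 between the PyMT arrays. Another of its probe sets, over the filter level on the PyMT Ets2-present array only, gave -2.15. The third, under the filter level on every array, gave -0.96. Aif1, the macrophage protein IBA1, had levels from 4.20 to 4.96 and a difference of -0.59. The 0.14 of the brightest Coro1a probe set lay within the 0.60 SD of probe set disagreement, while its other probe sets were lower without Ets2.

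A wider list of 43 other myeloid genes, 37 of them measured and none a member, was read beside them. Between the PyMT arrays 4 were at least 2-fold lower without Ets2 (10.8%) and 3 higher (8.11%), against 6.62% and 8.3% of all genes, and the median was 0.26, against 0.06 for all genes. On the PyMT arrays 25 and 24 of them were under the filter level, with and without Ets2, and genes with a mean under that level had a median of 0.20 in this comparison. The lower ones were Irf8, Clec4d, Ccr1 and Gpnmb and the higher ones Ptpn6, Cd86 and Slc11a1, named after their values were seen. In PyMT over normal fibroblasts with Ets2, 6 of the 37 were at least 2-fold higher (16.2%, against 5.28% of all genes) and 0 lower (5.58%). Without Ets2, 8 were higher (21.6%, against 9.8%) and 1, Cd163, lower (2.70%, against 8.73%). Gpnmb, a glycoprotein of lysosome-rich macrophages that other cells make as well, read 4.99, 6.47, 7.08 and 5.87, or 4.25-fold higher in PyMT Ets2-present than in normal Ets2-present fibroblasts. The number of these genes at or over the filter level was 9 and 7 in normal and 12 and 13 in PyMT fibroblasts, so that the PyMT Ets2-null array did not have fewer than the PyMT Ets2-present array.

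Of 8 measured ligands that act on myeloid cells, Csf1, Csf3 and Ccl5 were at least 2-fold higher in PyMT than in normal fibroblasts with Ets2 (5.28% of all genes) and Csf2 was at least 2-fold lower (5.58%), but Csf3 and Csf2 were under the filter level on all 4 arrays. Without Ets2, Csf3, Ccl2 and Ccl7 were higher (9.8% of all genes) and Ccl5 was lower (8.73%). The monocyte chemokines Ccl2 and Ccl7, at levels from 9.24 to 11.1, were 3.002-fold and 2.69-fold higher there. Csf1, the ligand of Csf1r and a normal product of fibroblasts, read 11.1, 10.9, 12.3 and 11.6 and is given here after its values were seen. Its order of arrays had the PyMT Ets2-present array at the top, as for its receptor, but the difference between the PyMT arrays was 1.73-fold. Ccl5, a chemokine that draws monocytes and T cells, read 4.56, 5.77, 5.78 and 3.76, and was 4.06-fold lower without Ets2 in PyMT fibroblasts and 4.01-fold lower in PyMT than in normal fibroblasts without Ets2. Its PyMT Ets2-null value was under the filter level, and with low values raised these folds were 2.22 and 2.19.

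Markers of other cells were read beside these results. All 11 measured fibroblast markers were over the filter level on every array, with mean levels of 11.68 and 11.95 in normal and 11.11 and 11.19 in PyMT fibroblasts, and between the PyMT arrays 1 of the 11 was at least 2-fold lower (Thy1, 9.09%) and 1 higher (Pdgfra, 9.09%), against 6.62% and 8.3% of all genes. In PyMT over normal fibroblasts with Ets2, Pdgfra, Dcn and Lum were at least 2-fold lower, 3 of 11 (27.3%, against 5.58%), 0 were higher (5.28%), and 9 were below 0. Without Ets2, Thy1, Dcn and Lum were lower (27.3%, against 8.73%) and Pdgfrb higher (9.09%, against 9.8%). Lum, the proteoglycan lumican, read 9.26, 11.6, 6.73 and 5.82. S100a4, whose promoter drives the Cre, read 12.9, 13.0, 12.4 and 12.7. Its 4 values spanned less than 2-fold.

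Markers of other blood cells mostly lay under the filter level. None of 8 measured T and NK cell markers reached the filter level on any array, with summed log2 levels of 23.8 to 27.1. At most 1 marker did so on any array among 5 for B cells, 7 for mast cells and 8 for neutrophils, with summed levels of 16.8 to 18.7, 22.3 to 25.5 and 21.9 to 27.3. Among 7 dendritic cell markers, 1 to 2 did, with summed levels of 25.8 to 29.7. They were Zbtb46, a transcription factor of dendritic cells that endothelial cells also use, and the chemokine receptor gene Xcr1, both named after their values were seen. Zbtb46 read 6.90, 7.05, 7.68 and 6.36, over the filter level on all 4 arrays and 2.49-fold lower without Ets2 in PyMT fibroblasts. Xcr1 read 4.64, 4.44, 4.96 and 6.07, which is 2.16-fold higher there. The part of dendritic cell RNA in the levels of the members was not tested. The neutrophil granule gene Camp read 2.97, 2.81, 5.10 and 2.74 and so was over the filter level in PyMT Ets2-present fibroblasts alone, 5.13-fold above PyMT Ets2-null or 1.38-fold with the low value raised. The part of neutrophil RNA in the levels of the members was not tested.

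Some epithelial and endothelial markers were well over the filter level. Of 7 epithelial markers 3, 2, 2 and 4 reached the filter level in the same order of arrays, and of 7 endothelial markers 1, 1, 0 and 1 did. Krt19 read 4.98, 4.39, 7.36 and 7.21, Krt18 read 8.05, 6.72, 4.23 and 4.49, and Krt14 read 2.83, 3.54, 2.42 and 4.85, with summed log2 levels of the list from 29.2 to 34.4. In PyMT over normal fibroblasts with Ets2, 4 of the 7 were above 0. Krt8 and Krt19 were at least 2-fold higher (28.6%, against 5.28% of all genes) and Krt18 lower (14.3%, against 5.58%). Without Ets2, 6 of the 7 were above 0. Epcam, Krt8, Krt14 and Krt19 were at least 2-fold higher (57.1%, against 9.8%) and Krt18 lower (14.3%, against 8.73%). With low values raised, only Krt19 was still 2-fold higher in either case. As deposited, the epithelial markers were thus mixed with Ets2 and mostly higher in PyMT without it. The endothelial receptor Kdr read 6.12, 6.80, 3.94 and 4.35, lower in both PyMT arrays, and the summed level of its list was 25.6 to 28.3. In PyMT over normal fibroblasts, 4 of these 7 markers were above 0 with Ets2 and 6 without. With Ets2, Kdr was at least 2-fold lower (14.3%, against 5.58% of all genes) and Emcn, under the filter level throughout, higher (14.3%, against 5.28%). Without Ets2, Kdr was lower (14.3%, against 8.73%) and Tek higher (14.3%, against 9.8%), or 1.51-fold for Tek with low values raised. The share that such cells, the raised spike-ins and 18S rRNA, or a single culture had in the myeloid differences was not tested.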

How the data were processed

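RNA of cultured mouse mammary fibroblasts was hybridised to Affymetrix arrays, 1 per group, 4 in all. The authors deposited log2 levels per probe set, made by RMA, which corrects background, normalizes between arrays and summarizes probes; its version and the arrays normalized together are not given in the sources used here. The values were used as deposited. Of 22690 probe sets (64 controls), the platform annotation gave 1 gene symbol for 20393, several for 691 and none for 1606; those with 1 symbol were kept, and each of 12394 genes was read by its probe set of highest mean. Groups came from the sample labels. Log2 differences were taken in 4 comparisons, and genes at least 2-fold or 4-fold apart were counted. No test was run, since each group has 1 array; that number limits the precision.

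The members and the lists of other cell types were chosen with earlier results of these data known. By the rule for named genes, 22 members were given with all 4 values and 15 by range; other genes were named where at least 4-fold apart in a comparison, with S100a4, and genes behind small counts were named after their values were seen. The alternatives were a filter on mean level at the 40th or 60th percentile of the table (4.63 or 6.78), raising values under the former to it, the mean over probe sets, leaving out probe sets marked _s_at or _x_at, and cyclic loess. The counting of calls was tested on simulated data. Promoters were RefSeq windows on GRCm38.p6. Python 3.11.15, numpy 2.4.6, pandas 2.3.3, R 4.3.3 and limma 3.58.1 were used.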

Additional observations from a re-analysis of the deposited data

Results flagged for a closer look

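Among the members, Fcgr3 and Lcp1 had differences of opposite sign under the same contrast, each at least 2-fold. How many of all genes did so was not counted. For Fcgr3, Ets2-null minus Ets2-present was -1.39 in PyMT and 1.32 in normal fibroblasts, and PyMT minus normal was 1.17 with Ets2 and -1.55 without. With low values raised, these 4 differences of Fcgr3 were -0.46, 0.62, 0.46 and -0.62, all under 2-fold. For Lcp1, PyMT minus normal was 2.08 with Ets2 and -1.37 without. With 1 array a group, the difference was not tested in either gene. The second Lcp1 probe set gave 0.73 with Ets2 and 1.49 without, which have the same sign.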

How the results depend on the processing

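No paired analysis was possible because each group has 1 array, and leaving out a replicate was not possible for the same reason. Over the 6 alternatives, the counts and medians kept their value within 1.5 times (counts) or 0.1 (medians) in 45 cases and moved in 27. Of 420 values of single members, 240 were identical under the alternative, many because it could not alter them, such as a filter or a gene with 1 probe set. Of the 180 altered values, 139 stayed within the disagreement of probe sets. Sign turned in 7, of which 1 was at least 2-fold apart before: Lcp1, PyMT Ets2-null minus normal Ets2-null, was 0.0615 with the mean over probe sets. The other 6 were 1 of Msr1, 2 of Lyz1, 1 of Lyz2 and 2 of Plek. For PyMT Ets2-null minus PyMT Ets2-present, 1 member was at least 2-fold lower at the 60th percentile filter (3.86% of genes passing it). With low values raised, 6 were lower (4% of all genes). Members higher were 0 at the 60th percentile (2.68%) and 0 with the mean over probe sets (6.83%). The median was -0.63 at the 40th percentile, -0.0855 at the 60th, 0 with low values raised, -0.20 without _s_at and _x_at probe sets and -0.56 after cyclic loess. For normal Ets2-null minus normal Ets2-present, the members higher were 0 at the 40th percentile (2.08%), 0 at the 60th (0.717%) and 1 with low values raised (1.15%). The median was -0.16 and -0.12 at the 40th and 60th percentile filters. For PyMT Ets2-present minus normal Ets2-present, 4 were higher at the 60th percentile (2.26%), and the median was 1.16, 1.39 and 0.035 at the 40th, at the 60th and with low values raised. For PyMT Ets2-null minus normal Ets2-null, the same settings gave 2, 0 and 3 members lower (10.6%, 6.44% and 5.94%). They gave 6, 2 and 5 higher (6.93%, 3.81% and 4.22%), and medians of 0.48, 0.91 and 0. The filters leave 19 and 6 members, which by itself lowers the counts. Other causes were not tested. Probe sets near background limit what 17 members, over the filter level on at most 1 array, can show.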
